A study of Mus musculus with 6 samples.

Results

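The genes described here encode 9 proteins that tie actin filaments to each other, to integrins or to cell contacts: Vcl, Tln1, Pxn, Zyx, Actn1, Actn4, Flna, Flnc and Fat1. They are 9 of the 54532 genes in the deposited expression table and were picked by symbol, with the IL-36β against untreated values of these same libraries already known. Their differences between the groups are therefore given as a description, with no test. The libraries were made from primary brain microvascular endothelial cells, which line the capillaries of the brain, grown from wild-type C57BL/6J mouse brain and selected with puromycin. The IL-36β group had 3 libraries, from cells given processed mouse IL-36β (DEVD mIL-36β) at 100 ng/ml for 24 h, and the untreated group had 3 libraries. No vehicle or sampling time is given for the untreated cells, so a difference in culture time and the cytokine cannot be told apart. The labels do not say whether libraries of a group came from separate mice or cultures, so the spread between libraries may be technical.

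Focal adhesions are the sites where integrins hold the cell to its matrix and where actin stress fibres end. Talin binds the integrin tail and, under pull, opens binding sites for vinculin, which couples talin to actin. Paxillin and zyxin are LIM-domain adaptors of the same sites. α-Actinin and filamin crosslink actin filaments, and FAT1 is a giant atypical cadherin that binds Ena/VASP proteins and shapes actin at cell contacts. In endothelium the same actin attachments also load cell-to-cell junctions, where vinculin binds α-catenin.

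Levels are FPKM, reads scaled by the authors for gene length and library depth, and differences are of mean log2(FPKM + 0.5), IL-36β minus untreated. Reads assigned to genes numbered 15180389 to 18938592 in the IL-36β libraries and 15439602 to 19544689 in the untreated libraries, and each of the 9 genes had at least 1330 reads in every library. All 9 passed the filter on low values. Of the listed endothelial identity markers 12 of 12 were measured. Their summed levels were high in both groups, 2585 to 3239 FPKM with IL-36β and 2479 to 2869 FPKM untreated. Single markers differed widely, with means over all libraries from 5.06 FPKM for Vwf to 965 FPKM for Cdh5. Column names give each library a letter. Those with D or E (IL-36β 2 and 3, untreated 3) had been seen to stand apart from those with A or B (IL-36β 1, untreated 1 and 2), so for the 9 genes each set's own values are given next to the pooled ones. In limma 23 of 12618 genes passed a Benjamini-Hochberg adjusted p under 0.05 over the whole table, 0.166% of genes higher and 0.0159% lower.

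Fat1, Flnc and Vcl were lower in every IL-36β library than in every untreated library, which over all genes tested was so for 7.24%. None of the 9 was higher without overlap, beside 8.95% of all genes tested. Tln1, Zyx, Actn1, Actn4 and Flna had pooled differences near 0 with overlapping groups, and Pxn was the one gene with a pooled difference above 0. The median difference of the 9 was -0.12 on the log2 scale, beside 0.00 over all genes tested, and 8 of 9 were below 0, beside 49.5% of all genes tested. In RNA from whole cultures fewer cells of a type and less RNA per cell cannot be told apart.

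**Figure D1:**
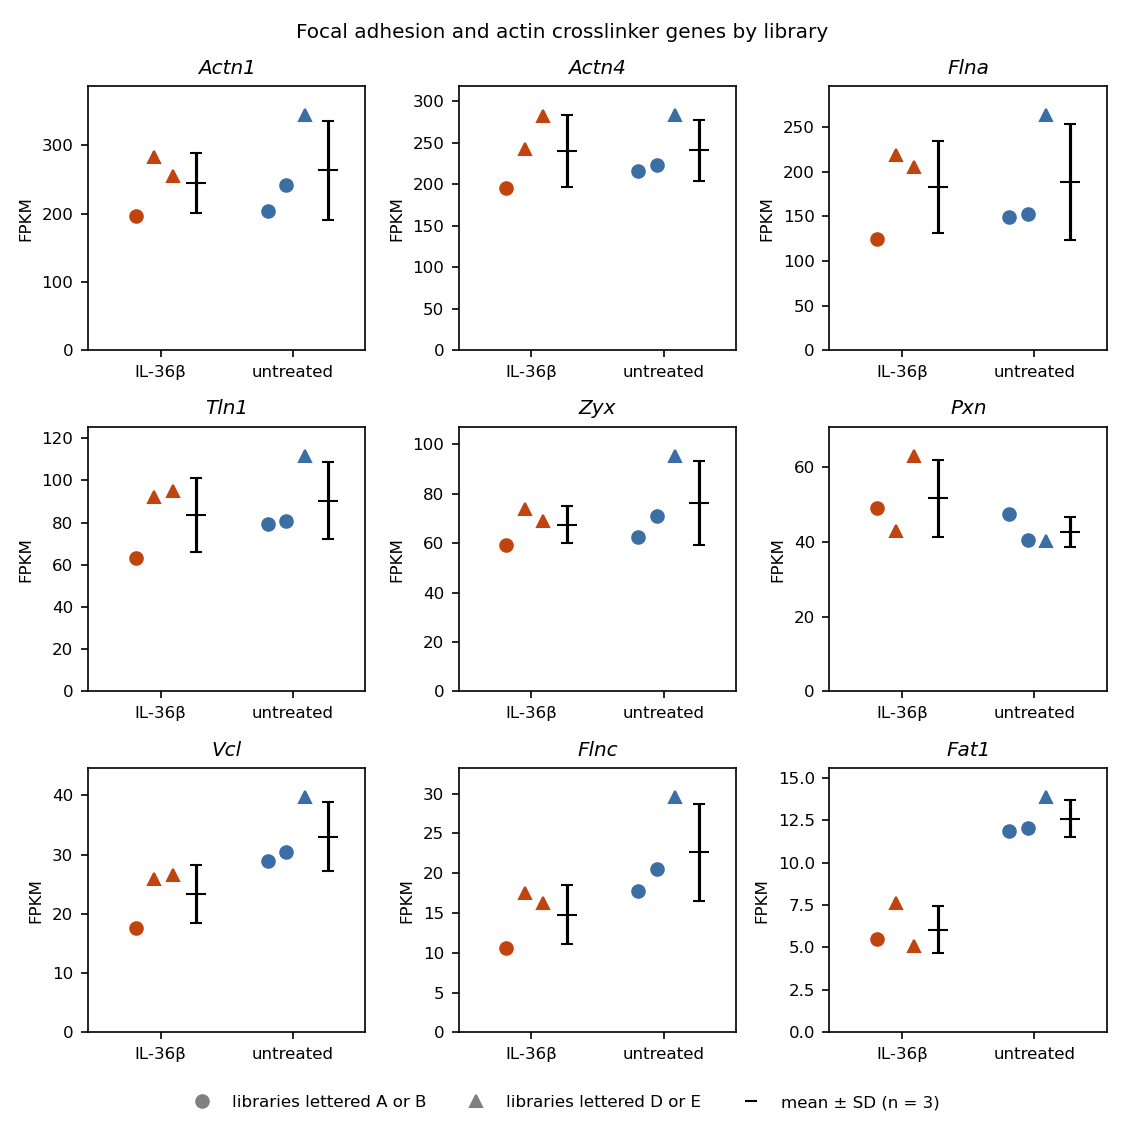
Level in FPKM (y axis, from 0) of each of the 9 genes in the 3 IL-36β (left) and 3 untreated (right) libraries; circles are libraries lettered A or B, triangles those lettered D or E, and bars are means ± SD. Fat1, Flnc and Vcl show no overlap of the groups, and untreated 3 is the highest library for 8 of the 9 genes.

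Fat1 (ENSMUSG00000070047, chromosome 8, 44935447 to 45052257, plus strand, GRCm38) had the largest difference of the 9. Its level was 5.47, 7.61 and 5.07 FPKM in IL-36β libraries 1 to 3, against 11.9, 12.05 and 13.8 FPKM in untreated libraries 1 to 3. Each IL-36β library lay far under the lowest untreated one. The means were 6.05 ± 1.37 FPKM with IL-36β and 12.6 ± 1.09 FPKM untreated (SD, n = 3 each), a fold of 0.495 and a log2 difference of -1.01 ± 0.18 (SE). The fold was 0.480 within the set lettered A and B and 0.469 within the set lettered D and E. Leaving out each library in turn gave folds of 0.442 to 0.534. Fat1 differed little between the library sets. With the log2 gap taken inside each group and then averaged over both groups, Fat1 was 1.14-fold higher in the D and E set.

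Flnc (ENSMUSG00000068699, chromosome 6, 29433256 to 29461883, plus strand), the filamin best known from striated muscle, came next. It stood at 10.6, 17.5 and 16.3 FPKM in the IL-36β libraries, against 17.8, 20.6 and 29.5 FPKM in the untreated libraries. The groups touched closely, with the highest IL-36β library just under the lowest untreated one. The means were 14.8 ± 3.67 FPKM with IL-36β and 22.6 ± 6.13 FPKM untreated, a fold of 0.662 and a log2 difference of -0.60 ± 0.30 (SE). Within the sets the fold was 0.566 in A and B and 0.579 in D and E, lower than the pooled value in both. By the same group-averaged gap, Flnc was 1.55-fold higher in the D and E set.

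Vcl (ENSMUSG00000021823, chromosome 14, 20929398 to 21033676, plus strand) encodes vinculin. Its level was 17.7, 25.9 and 26.6 FPKM with IL-36β, against 28.8, 30.5 and 39.6 FPKM in untreated cells. IL-36β library 1 and untreated library 3 were the extremes, and the groups did not overlap. The means were 23.4 ± 4.94 FPKM with IL-36β and 33.0 ± 5.81 FPKM untreated, a fold of 0.708 and a log2 difference of -0.50 ± 0.23 (SE). The fold was 0.603 within A and B and 0.666 within D and E. In GENCODE M21 (GRCm38) 2090 bases, or 25.5% of the exonic bases of Vcl, are shared with exons of Ap3m1 on the other strand, and how strand was handled in counting is not stated in the labels. Ap3m1, an adaptor complex gene, stood at 12.02, 13.8 and 11.7 FPKM with IL-36β and at 13.2, 11.96 and 12.1 FPKM untreated. Reads of the shared stretch were not separated here.

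The 250 bases before the annotated start of these 3 genes are shown because the genes share a direction in these libraries. The sequences are from RefSeq, GRCm38.p6, plus strand. Capitals mark matches on either strand to a CArG box, the element bound by serum response factor (SRF), to CATTCC or GGAATG, the core bound by TEAD factors, and to TGANTCA, the core bound by AP-1. The windows are chr14:20929148-20929397 for Vcl, chr6:29433006-29433255 for Flnc and chr8:44949958-44950207 for Fat1. The RefSeq start of Fat1 lies inside the gene as the deposited table bounds it, which begins at 44935447. The Fat1 window may therefore not hold the promoter in use, and its match is read with that limit.
Vcl: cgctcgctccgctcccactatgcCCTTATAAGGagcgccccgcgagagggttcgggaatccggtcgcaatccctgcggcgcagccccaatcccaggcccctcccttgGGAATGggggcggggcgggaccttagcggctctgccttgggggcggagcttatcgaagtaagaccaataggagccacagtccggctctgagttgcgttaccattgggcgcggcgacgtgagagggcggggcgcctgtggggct
Flnc: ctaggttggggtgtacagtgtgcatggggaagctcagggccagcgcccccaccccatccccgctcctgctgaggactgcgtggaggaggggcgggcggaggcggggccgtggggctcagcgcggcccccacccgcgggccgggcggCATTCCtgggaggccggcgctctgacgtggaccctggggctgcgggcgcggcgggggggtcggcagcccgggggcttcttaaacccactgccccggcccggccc
Fat1: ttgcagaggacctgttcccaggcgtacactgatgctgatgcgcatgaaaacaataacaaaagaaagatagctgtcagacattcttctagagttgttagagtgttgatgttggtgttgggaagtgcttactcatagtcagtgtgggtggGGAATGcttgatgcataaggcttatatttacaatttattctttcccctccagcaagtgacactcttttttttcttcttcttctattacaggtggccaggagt
The Vcl window held a CArG box, CCTTATAAGG, at positions -227 to -218 from the start, and a GGAATG at -143 to -138. The Flnc window shown held CATTCC at -104 to -99 and the Fat1 window GGAATG at -102 to -97. The other Flnc window, chr6:29432903-29433152, held no CATTCC or GGAATG. Of the 9 windows that the table holds for 8 of the genes (Flnc has 2 that overlap, Pxn has no entry), 1 had a CArG box, beside 1.47% of 32851 windows of the same length. CATTCC or GGAATG stood in 5 of the 9, those of Vcl, Flnc, Fat1, Flna and Actn4, beside 12.6% of all windows. TGANTCA was in 2, those of Zyx and Actn4, beside 6.75%, and TATAAA or TTTATA in none, beside 12.4%. GGGCGG or CCGCCC was in 7, with both overlapping Flnc windows among them, beside 32.7%. GC was 42.0% in the Fat1 window and 55.6 to 77.2% in the rest, beside a median of 52.4% over all windows. The shares were not matched for GC. All 5 motifs were searched on both strands, a CArG box can itself contain TATAAA, and a match describes letters only. Windows of Flna and Actn4, whose pooled differences were near 0, also held the TEAD core. The Flna window, chrX:74246535-74246784, lies inside the gene as deposited, which ends at 74249820 on the minus strand. Its match is read with the same limit as that of Fat1.

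Tln1 (ENSMUSG00000028465, chromosome 4, 43531519 to 43562691, minus strand), the partner of vinculin at integrins, had a smaller and overlapping difference. It stood at 63.2, 92.4 and 94.9 FPKM with IL-36β, against 79.1, 80.7 and 111 FPKM untreated. Both IL-36β libraries lettered D or E were above the untreated libraries lettered A or B, while untreated 3 was above all. The pooled log2 difference was -0.12 ± 0.25 (SE), a fold of 0.921, with folds of 0.792 within A and B and 0.841 within D and E.

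Zyx (ENSMUSG00000029860, chromosome 6, 42349630 to 42360213, plus strand), a sensor of stress fibre strain, was 59.4, 74.0 and 69.0 FPKM with IL-36β and 62.6, 71.1 and 95.2 FPKM untreated. Untreated 3 was the highest library and IL-36β 1 the lowest, and the groups overlapped. The pooled log2 difference was -0.16 ± 0.20 (SE), and 0.01 without untreated 3. Within the sets the fold was 0.890 in A and B and 0.752 in D and E.

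Pxn (ENSMUSG00000029528, chromosome 5, 115506676 to 115555987, plus strand), which recruits kinases to adhesions, differed from the rest in direction. It was 49.0, 43.0 and 62.9 FPKM with IL-36β, against 47.4, 40.5 and 40.2 FPKM untreated. IL-36β 3 was the highest library and untreated 3 the lowest, and IL-36β 2 lay under untreated 1, so the groups overlapped. The log2 difference was 0.26 ± 0.18 (SE), a fold of 1.20, with 1.12 within A and B and 1.29 within D and E. The groups of Pxn did not overlap once IL-36β 2 or untreated 1 was left out.

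The actin crosslinkers of broad expression were the most abundant of the 9. Actn1 (ENSMUSG00000015143, chromosome 12, 80167547 to 80260371, minus strand) was 196, 282 and 254 FPKM with IL-36β and 204, 243 and 344 FPKM untreated. Actn4 (ENSMUSG00000054808, chromosome 7, 28893248 to 28962340, minus strand), its close relative, was 195, 242 and 282 FPKM with IL-36β and 216, 223 and 283 FPKM untreated. The spread inside each group was larger than the difference between the groups for both. Flna (ENSMUSG00000031328, chromosome X, 74223461 to 74249820, minus strand), the main filamin of non-muscle cells, was 124, 219 and 206 FPKM with IL-36β and 149, 153 and 263 FPKM untreated. The pooled log2 differences were -0.09 ± 0.27 for Actn1, -0.01 ± 0.20 for Actn4 and -0.03 ± 0.37 for Flna (SE). Within A and B the folds were 0.884 for Actn1, 0.889 for Actn4 and 0.823 for Flna, and within D and E they were 0.780, 0.925 and 0.806 in the same order of genes.

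The order of levels in untreated cells was Actn1, Actn4, Flna, Tln1, Zyx, Pxn, Vcl, Flnc and Fat1, with means of 263 ± 72.3, 240.4 ± 36.7, 188 ± 64.7, 90.4 ± 18.2, 76.3 ± 16.9, 42.7 ± 4.10, 33.0 ± 5.81, 22.6 ± 6.13 and 12.6 ± 1.09 FPKM (SD, n = 3). Neighbours whose untreated ranges overlapped were Actn1 and Actn4, Actn4 and Flna, Tln1 and Zyx, and Vcl and Flnc. With IL-36β the means kept this order, from 244 ± 43.8 FPKM for Actn1 to 6.05 ± 1.37 FPKM for Fat1. In all 6 libraries each gene stood above the next in the order, except that Actn1 was above Actn4 in 4 of 6.

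Most of the 9 genes shared a pattern over the libraries. Untreated 3 was the highest library for 8 of 9 genes, beside 18.2% of all genes tested, and IL-36β 1 was the lowest for 7 of 9, beside 19.2%. The log2 gap of libraries lettered D or E over those lettered A or B was taken inside each group and averaged over both groups. It was above 0 for 8 of 9 genes, beside 52.1% of all genes tested. Its median was 0.48, beside 0.01 for all genes tested. Single libraries could differ from this, as IL-36β 3, lettered E, was the lowest library for Fat1. Flna showed the widest gap, 1.72-fold, and Pxn the narrowest, 0.987-fold. The groups hold the sets unevenly, 1 IL-36β and 2 untreated libraries in A and B, and 2 IL-36β and 1 untreated in D and E. Within A and B the median difference of the 9 was -0.28, and within D and E -0.36, beside -0.003 and 0.001 over all genes tested. The same 8 genes were below 0 in both sets, and Pxn was above 0 in both.

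**Figure D2:**
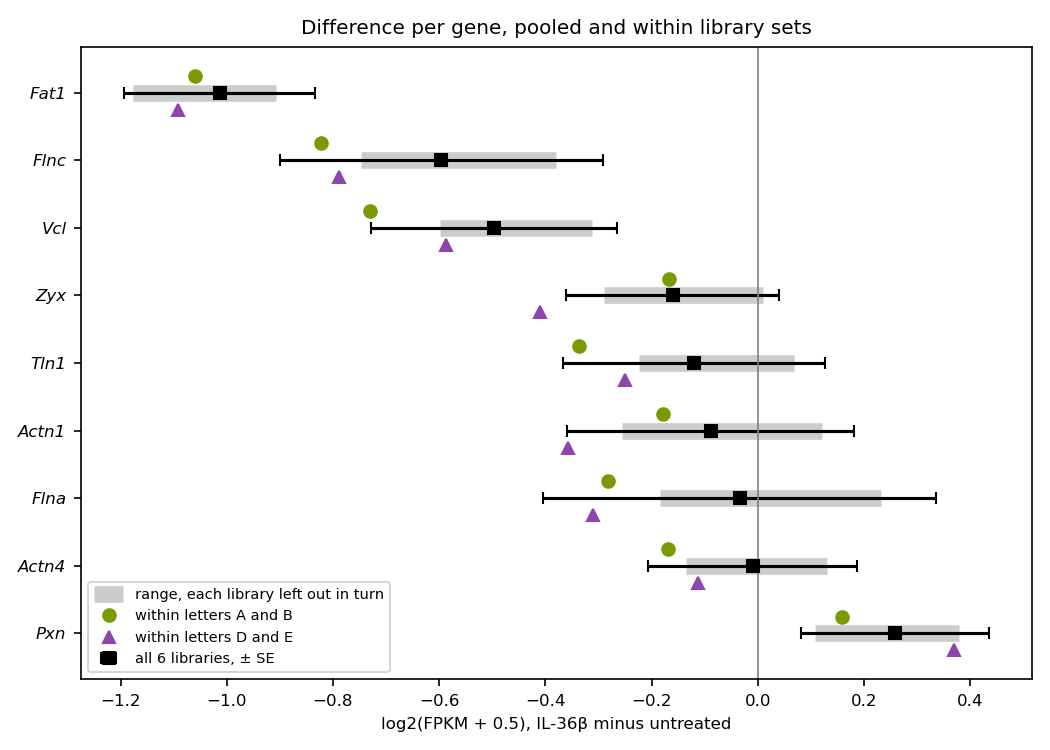
Difference in log2(FPKM + 0.5), IL-36β minus untreated (x axis), for each of the 9 genes: squares with bars are all 6 libraries ± SE, circles and triangles the values within each library set, and grey bars the range when each library is left out in turn. Fat1, Flnc and Vcl stay left of 0 throughout, Pxn stays right of 0, and the grey bars of the other 5 genes cross 0.

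The pooled direction of the 5 genes near 0 changed when single libraries were left out. Untreated 3 is the only untreated library in D and E, and IL-36β 1 the only IL-36β library in A and B. Leaving out either leaves its set without a comparison, so the gap between the sets enters the difference. With a term for the set the log2 differences of Flna, Tln1, Zyx, Actn1 and Actn4 were -0.30, -0.29, -0.29, -0.27 and -0.14. Without untreated 3 the log2 differences of Flna, Actn1, Actn4, Tln1 and Zyx were 0.23, 0.12, 0.11, 0.04 and 0.01, and the median of the 9 was 0.04. Without IL-36β 1 those of Flna, Actn4, Tln1 and Actn1 were 0.22, 0.13, 0.07 and 0.06, and the median of the 9 was 0.06. With all libraries Actn4 was above 0 in DESeq2 and with array weights, and Flna with array weights. Fat1, Flnc and Vcl were below 0 whichever library was left out, at -1.18 to -0.91, -0.75 to -0.38 and -0.60 to -0.31. Libraries that share a letter gave the same signs as the sets. For letter A the IL-36β over untreated fold was 0.484 for Fat1, 0.606 for Flnc and 0.620 for Vcl, and for letter D it was 0.566, 0.598 and 0.657 for these genes.

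Ratios inside a library do not depend on how libraries are scaled. These ratios, and Tln1 as the common denominator, were chosen after the values were seen. The Vcl to Tln1 ratio of FPKM was 0.280, 0.280 and 0.280 in IL-36β libraries 1 to 3, against 0.365, 0.378 and 0.356 in untreated libraries 1 to 3. The IL-36β libraries agreed more closely than the counting error of the reads, a standard error of 1.61 to 2.34% per library, so their spread is no measure of precision. Although Vcl and Tln1 each varied widely between libraries, their ratio varied little inside a group. The mean ratio with IL-36β was 0.765 of that in untreated cells.

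The Flnc to Flna ratio, of 2 filamins, was 0.0854, 0.0800 and 0.0793 with IL-36β, against 0.120, 0.134 and 0.112 untreated. The groups were apart here too, at 0.668 of the untreated ratio. Fat1 to Tln1 was 0.0866, 0.0824 and 0.0535 with IL-36β, against 0.150, 0.149 and 0.124 untreated. The ratio of the 2 α-actinins, Actn1 to Actn4, was 1.01, 1.17 and 0.901 with IL-36β and 0.944, 1.09 and 1.22 untreated, so these groups overlapped. Of the 8 other genes set against Tln1, Vcl, Flnc and Fat1 were lower without overlap and the remaining 5 overlapped. Over all genes tested the ratio to Tln1 was lower without overlap for 1.05% and higher without overlap for 6.29%. Each gene was also set against the geometric mean of the other 8. Vcl, Flnc and Fat1 were lower without overlap, at 0.827, 0.760 and 0.539 of the untreated ratio. This scale re-expresses the same values, and no share over all genes tested was computed for it. The gaps of Vcl and Flnc were smaller than those to Tln1, and that of Fat1 was slightly smaller. On this scale Tln1 and Actn4 were higher without overlap, at 1.12 and 1.22 of the untreated ratio, and the other 4 overlapped. The denominator of Tln1 and Actn4 holds Vcl, Flnc and Fat1, so the lower levels of those genes with IL-36β raise these ratios.

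**Figure D3:**
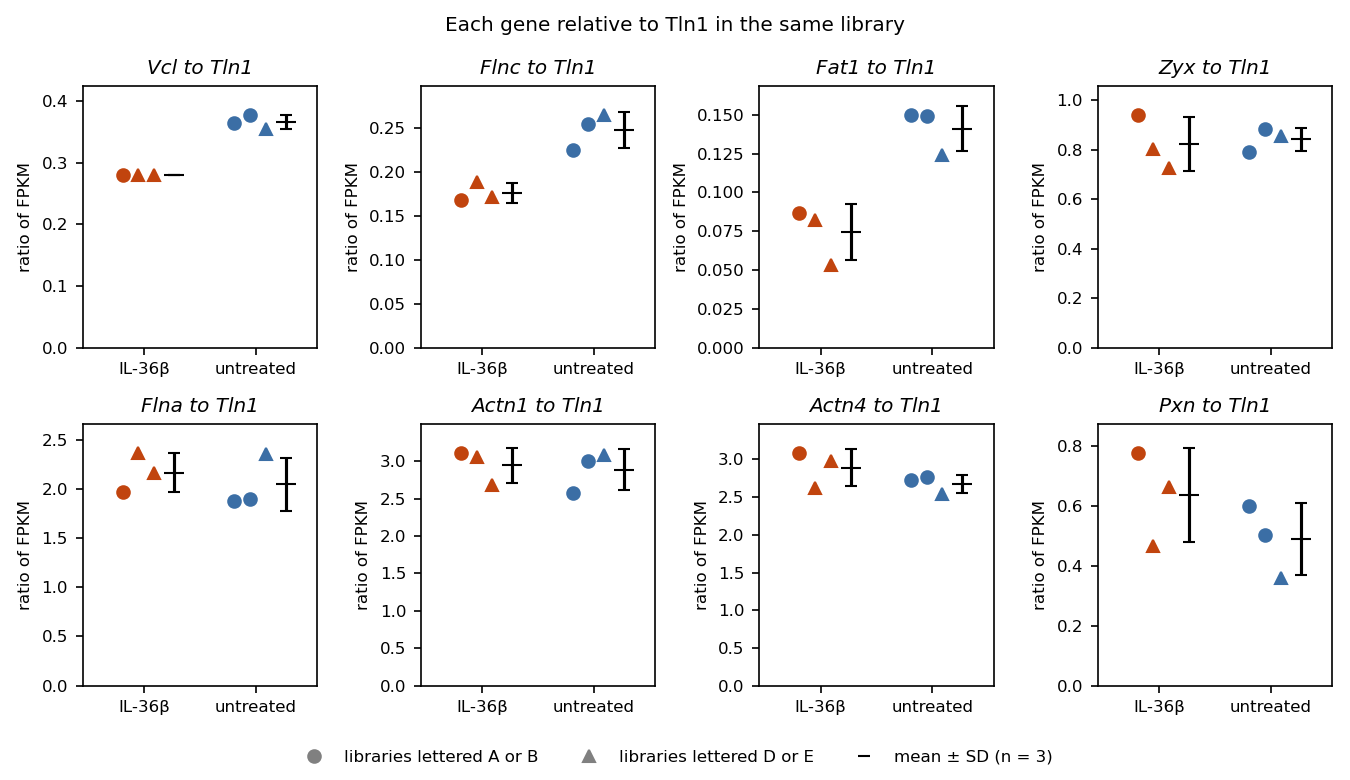
Ratio of the FPKM of each gene to that of Tln1 in the same library (y axis, from 0), IL-36β left and untreated right, with symbols as library sets and bars as mean ± SD. The Vcl ratio is 0.280 in each IL-36β library and 0.356 to 0.378 in the untreated ones, while Zyx, Flna, Actn1, Actn4 and Pxn overlap.

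Markers of mural cells were read beside these values, since Flnc and Vcl are also muscle genes. Summed levels of 9 smooth muscle markers, 8 of which passed the filter, were 468 to 926 FPKM in IL-36β libraries and 505 to 1499 FPKM in untreated libraries. As for most of the 9 genes, the lowest library was IL-36β 1 and the highest untreated 3. Most of the sum was Acta2, the smooth muscle actin gene that cultured cells can also switch on, at 340 to 772 FPKM with IL-36β and 378 to 1323 FPKM untreated. Myh11, smooth muscle myosin, was 4.60, 3.90 and 2.055 FPKM with IL-36β and 6.54, 11.6 and 6.02 FPKM untreated. The list did not share 1 direction: 6 of the 9 pooled folds were below 1 and 3 above. Myh11, Cnn1 and Myocd were lower without overlap, at folds of 0.469, 0.489 and 0.801. Myocd was the marker that did not pass the filter, at 0.227 to 0.466 FPKM, where the added 0.5 FPKM shrinks the fold. Over all genes tested 7.24% were lower and 8.95% higher without overlap. Smtn, which encodes the actin-binding smoothelin, was higher without overlap, at 78.3, 73.8 and 99.7 FPKM with IL-36β and 67.6, 61.4 and 62.7 FPKM untreated, a fold of 1.30. Des had a pooled fold of 1.21 and Tagln of 1.13, both with overlap. Within A and B the folds of Smtn, Des and Tagln were 1.21, 0.880 and 0.798. Within D and E they were 1.37, 1.58 and 0.885, so Tagln was below 1 in both sets. No smooth muscle marker was at 0 in all libraries, and their part in the results was not tested. Pericyte markers summed to 4.02 to 6.65 FPKM with IL-36β and 5.44 to 6.99 FPKM untreated, with 3 of 7 past the filter. The 6 fibroblast markers summed to at most 3.73 FPKM, and the lists of astrocytes, microglia and neurons with oligodendrocytes to at most 1.70 FPKM in any library, with Aqp4, Slc1a3, C1qa and Snap25 at 0 in all 6.

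The closest relatives of the 9 genes that were expressed showed no call. Of 17 relatives 10 passed the filter, and none passed the limma threshold, with 0 also at an unadjusted p under 0.05, 0 in edgeR and 0 in DESeq2. Over all genes tested 0.182% passed in limma and 10.4% had an unadjusted p under 0.05 in limma. Of the genes each tested, edgeR called 0.274% and DESeq2 1.95%. For 10 genes, counts of 0 are near these shares. The median log2 difference of the relatives was -0.07, with -0.06 within A and B and -0.25 within D and E. Ctnna1, α-catenin and a relative of vinculin, was 305 ± 29.6 FPKM with IL-36β and 262 ± 20.3 FPKM untreated, a fold of 1.16 (95% confidence interval 0.958 to 1.41; limma adjusted p = 0.576).

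The zyxin relatives did not share 1 direction. Lpp was 7.92 ± 2.86 FPKM with IL-36β and 9.41 ± 3.70 FPKM untreated, and Ajuba 23.7 ± 2.21 FPKM with IL-36β and 27.6 ± 9.09 FPKM untreated. The fold of Ajuba was 1.01 within A and B and 0.645 within D and E, and that of Lpp 0.718 within A and B and 0.687 within D and E. Trip6 was 25.4 ± 2.46 FPKM with IL-36β and 23.0 ± 1.999 FPKM untreated, Wtip 11.1 ± 1.57 FPKM with IL-36β and 9.42 ± 1.12 FPKM untreated, and Limd1 8.60 ± 0.369 FPKM with IL-36β and 8.92 ± 0.130 FPKM untreated. Tgfb1i1, the paxillin relative Hic-5, was 29.4 ± 6.14 FPKM with IL-36β and 30.0 ± 9.02 FPKM untreated. Fat4, the one other FAT cadherin above 1 FPKM, was 2.47 ± 0.906 FPKM with IL-36β and 3.22 ± 1.15 FPKM untreated. Tln2, Actn2, Actn3, Fat2, Fat3, Ctnna2 and Ctnna3 did not pass the filter, and the highest mean among them was that of Actn3, 0.301 FPKM with IL-36β and 0.294 FPKM untreated.

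The wider pathway was read from 6 lists of integrins, adaptors, kinases, crosslinkers, actomyosin and SRF targets, 137 genes in all, of which 129 passed the filter. None passed the limma threshold over all genes tested, beside 0.182% of all genes. At an unadjusted p under 0.05 there were 23, 16 higher and 7 lower, which is 17.8% beside 10.4% of all genes tested (5.96% higher, 4.41% lower). edgeR called 1 of them, beside 0.274% of the genes it tested, and DESeq2 7, beside 1.95%. The median log2 difference of the 129 was -0.01.

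The genes that other fits called were crosslinkers, small GTPases, contractile genes and an integrin, and were named after their values were seen. Marcksl1, a membrane protein that bundles actin, was 163, 124 and 178 FPKM with IL-36β, against 75.1, 66.9 and 51.1 FPKM untreated. All 3 IL-36β libraries were above all untreated ones, a 2.40-fold difference with a limma adjusted p of 0.0766, an edgeR adjusted p of 0.0290 and a DESeq2 adjusted p of 1.15e-09. A limma fit that also models the set called Marcksl1 (adjusted p = 0.0232), and 0.808% of all genes. DESeq2 also called Fscn1, the bundler of filopodia, 1.98-fold on the limma scale (DESeq2 adjusted p = 2.36e-05; limma adjusted p = 0.167).

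Rhob, an endosomal small GTPase, was 487 ± 110.1 FPKM with IL-36β and 289 ± 34.0 FPKM untreated, 1.66-fold (limma adjusted p = 0.224; DESeq2 adjusted p = 0.00115). Rhoc, which promotes actomyosin contraction, was 715 ± 99.8 FPKM with IL-36β and 476 ± 39.6 FPKM untreated, 1.49-fold (limma adjusted p = 0.247; DESeq2 adjusted p = 0.00329). On the lower side DESeq2 called Fhl1 and Cnn1, LIM and calponin genes of muscle, and the integrin gene Itga8. Fhl1 was 18.9, 15.5 and 8.29 FPKM with IL-36β and 23.6, 41.0 and 31.4 FPKM untreated, and Cnn1 was 19.3, 21.7 and 9.59 FPKM with IL-36β and 23.5, 37.9 and 40.6 FPKM untreated. Neither gene's groups overlapped (limma adjusted p = 0.264 for Fhl1 and 0.360 for Cnn1). Itga8 was 3.07 ± 0.380 FPKM with IL-36β and 4.63 ± 0.492 FPKM untreated (limma adjusted p = 0.231; DESeq2 adjusted p = 0.0363).

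The most abundant genes of each list did not pass. Itgb1, the integrin β chain shared by most matrix receptors, was 776 ± 150.02 FPKM with IL-36β and 889.8 ± 116 FPKM untreated (limma adjusted p = 0.711), and Itga5, its partner for fibronectin, 305 ± 93.7 FPKM with IL-36β and 297 ± 169.6 FPKM untreated (0.921). The pooled fold of Itga5 was 1.10, with 1.04 within A and B and 0.718 within D and E. Among adaptors Csrp1 had a fold of 0.994 and Lasp1 of 1.13, and among crosslinkers Tagln2 had 1.23 and Cfl1, the filament-severing cofilin, 1.13. Actb was 1324 ± 153 FPKM with IL-36β and 1281 ± 268 FPKM untreated (0.926), and Actg1 1152 ± 157 FPKM with IL-36β and 1113 ± 279 FPKM untreated (0.923). Ctgf, a matricellular target of SRF and YAP, had a fold of 0.877 (0.776). Values in brackets are limma adjusted p.

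**Figure D4:**
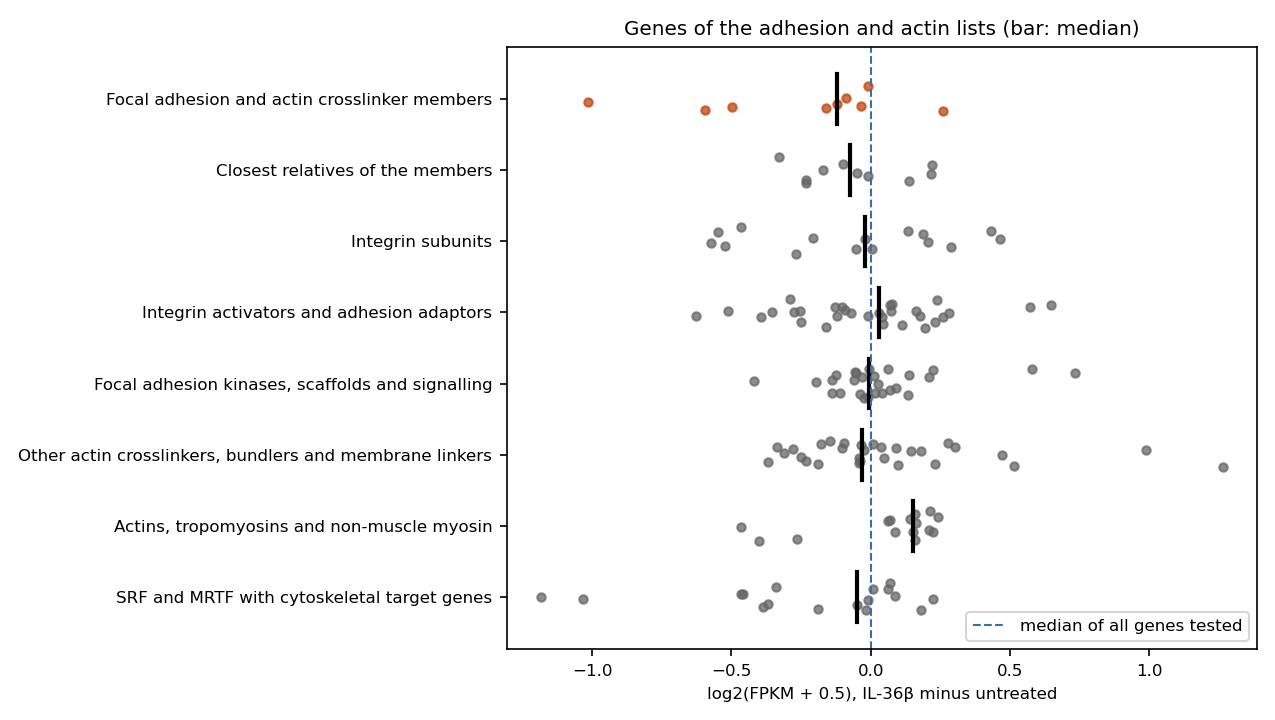
Difference in log2(FPKM + 0.5), IL-36β minus untreated (x axis), of each measured gene in the 9-gene set (orange, top), their relatives and the 6 pathway lists, with the median of each list as a bar and that of all genes tested as a dashed line. List medians lie between -0.12 for the 9 genes and 0.15 for actins, tropomyosins and non-muscle myosin.

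List medians were 0.15 for actins, tropomyosins and non-muscle myosin, 0.03 for integrin activators and adaptors, -0.01 for adhesion kinases, scaffolds and signalling, -0.02 for integrins, -0.03 for other crosslinkers and -0.05 for SRF with its cytoskeletal targets. Within the library sets the SRF list had medians of -0.25 in A and B and -0.29 in D and E, and the actin list 0.04 in both. The integrin list had -0.05 in A and B and -0.27 in D and E, and -0.21 with a term for the set. The adaptor list had -0.11 in A and B and -0.02 in D and E, the kinase list -0.08 and -0.01, and the crosslinker list -0.08 and -0.07, in the same order of sets. Transcripts for actin itself and for the proteins that anchor or crosslink it were thus not all on 1 side of 0 in these libraries.

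The 5 genes most like the mean profile of the 9 over the 6 libraries, among 4468 genes of at least 10 FPKM, were Fitm2, Ppm1l, Mapk14, Slc7a1 and Ankrd50, with Pearson r of 0.993, 0.990, 0.986, 0.985 and 0.984. The likeness rests on 6 libraries, 3 in each library set, and is a description. Mapk14, the p38α kinase, was 19.2, 24.7 and 23.8 FPKM with IL-36β and 22.3, 23.9 and 31.0 FPKM untreated, with IL-36β 1 lowest and untreated 3 highest.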

How the data were processed

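RNA of mouse brain microvascular endothelial cells was sequenced as 6 stranded mRNA libraries, per the labels' protocols. The submitters' processing notes name fastp, HISAT2 2.05, featureCounts 1.50-p3, DESeq2 1.38.3 and GRCm38, without settings. The authors deposited FPKM per library for 54532 genes with gene lengths, and a table of 660 genes with raw counts, log2 fold changes and p-values. Per the file headers another table holds p-values of gene ontology terms. In the authors' deposited table of 660 genes, all with an unadjusted p under 0.05, none of the 9 genes is listed. The labels do not say which libraries entered that test. Deposited tables hold 8 columns of 4 further libraries, not used here.

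Libraries were grouped by title and columns matched by library name. Values were tested two-sided as log2(FPKM + 0.5) in limma 3.58.1 under R 4.3.3, using its trended prior. Genes needed 0.5 FPKM or more in 3 or more libraries, and p-values were Benjamini-Hochberg adjusted over all 12618. Such folds understate changes of low genes. FPKM times length gave whole reads within 0.01 for 100% of values above 0, equal to the deposited counts in all 660 genes, and edgeR 4.0.16 and DESeq2 1.42.0 were run on these reads. Libraries of a group differed by more than read sampling (chi-square over its degrees of freedom, 11.0 to 40.5). The 9 genes, the lists and the library sets were chosen with earlier results of these data known. Named genes were the 9, relatives of at least 1 FPKM, the 2 most abundant genes of each list without a call, and the 5 of highest r; 1 relative is not reported here. Others, the ratios and the motifs were chosen after values were seen. Sets are 3 libraries each and within-set values have no test. Alternatives were pseudocounts, filters, scalings, array weights, the set as a term, blocks by title number and by letter, and leaving out each library.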

Additional observations from a re-analysis of the deposited data

How the results depend on the processing

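Fat1, Flnc and Vcl were below 0 and Pxn above 0 in all 19 alternatives, with log2 differences of -1.18 to -0.91, -0.81 to -0.38, -0.66 to -0.31 and 0.07 to 0.38. The 3 lower genes did not overlap in the 15 alternatives that give values per library; none was computed for array weights, the set term or the blocks. With IL-36β 2 or untreated 1 left out Pxn was higher without overlap, which makes 4 of the 9 without overlap in place of 3. Actn1, Actn4, Flna, Tln1 and Zyx changed sign in 2, 4, 3, 2 and 1 alternatives, and the median of the 9 ranged from -0.29 to 0.06. The count of 23 genes called was 0 in limma without a filter on low values (1751 at an unadjusted p under 0.05), 13 with TPM scaling, 37 in edgeR, 269 in DESeq2, 102 with a term for the library set and 2 to 8 with a library left out. Pathway genes called were 0 with a library left out, 1 each with array weights, in edgeR and with the set term (Marcksl1 each time), and 7 in DESeq2. The causes were not tested.

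Title numbers and library letters pair the libraries differently. Deviations of same-numbered libraries correlated at 0.21, -0.14 and 0.21, and IL-36β 1 correlated best with untreated 2 (0.39), so numbers were not used as pairs. With a replicate block by title number 13 genes and no pathway gene were called, and with a replicate block by library letter 78 genes and 1 pathway gene (Marcksl1). The median of the 9 was -0.12 with the first and -0.26 with the second. Depth does not limit the 9 genes, each with at least 1330 reads per library, and intervals cover 3 libraries a group only.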

Other observations

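In the authors' deposited table of gene ontology terms among genes they list as higher, the term focal adhesion holds 3 of 360 genes, Fermt1, Sdc4 and Cyba (p = 0.693), and focal adhesion assembly holds 2 of 365, Rhod and Sdc4 (p = 0.468). None of the 9 genes is among them, which follows from none being in the authors' list of 660 genes. The authors' deposited table of 660 genes lists Marcksl1, Fermt3 and Fermt1 as higher and Fhl1, Ppp1r12a, Arhgap35 and Actn2 as lower among the relatives and pathway lists, with an adjusted p of 0.999 throughout.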
